A study of Mus musculus with 3 samples.

Results

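The genes described are 10 members of the transforming growth factor beta (TGF-beta) pathway: the ligand gene Tgfb1, the receptor genes Tgfbr1 and Tgfbr2, the SMAD genes Smad2, Smad3, Smad4 and Smad7, and the nuclear repressor genes Ski, Skil and Tgif1. They were taken by symbol, and all 10 were found among the 55536 genes of the deposited gene tables, 22028 of which are protein-coding. Each was measured by total RNA-seq in 3 libraries of monocytes, phagocytic white cells, from the peripheral blood of C57BL/6J mice aged 5 to 6 weeks. The libraries form 1 group of primary cells with no treatment or genotype contrast, carry biological replicate numbers 1, 2 and 3 and share 1 donor record. The sex was not collected, and the sources used here do not give the gate used to isolate the cells.

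TGF-beta is secreted as a latent complex and acts once released from it. The active dimer binds the type II receptor, a serine/threonine kinase encoded by Tgfbr2, which phosphorylates the type I receptor encoded by Tgfbr1. The type I receptor then phosphorylates SMAD2 and SMAD3, which join SMAD4 and move to the nucleus. SMAD7 blocks the receptor, and SKI, SnoN (from Skil) and TGIF1 hold SMAD complexes in a repressive state. In blood monocytes the pathway is known for chemotaxis towards TGF-beta and for restraint of inflammatory activation.

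The libraries held 27.2, 26.5 and 19.9 M expected counts in libraries 1, 2 and 3. Levels are in TPM, a relative transcript abundance per length, on which 1 TPM of a 1000-base transcript stood for 112, 121 and 76.0 counts. All 10 monocyte markers examined were detected, and their summed level was 2865, 2478 and 1666 TPM. Library 3 stood apart from the others. Xist, the X-inactivation RNA of female cells, had 0 counts in libraries 1 and 2 and 4348 in library 3, although the donor record is the same. In library 3 all 8 natural killer (NK) cell markers and all 8 platelet markers were highest, with summed levels of 654, 546 and 1526 TPM and of 15.5, 11.3 and 99.8 TPM. Erythroid markers summed to 3535, 3328 and 263 TPM and neutrophil markers to 142, 128 and 9.62 TPM, with Ly6g, Camp and Klf1 at 0. Most of the neutrophil sum in libraries 1 and 2 was Retnlg, at 124, 114 and 0 TPM. Of the 8 neutrophil markers, 5 were lowest in library 3 and 1, Csf3r, was highest there (5.99, 6.64 and 8.09 TPM). T cell markers summed to 5.51, 6.02 and 9.32 TPM and B cell markers to 91.8, 91.7 and 82.1 TPM. Basophil, eosinophil and mast cell markers summed to 27.7, 27.2 and 4.61 TPM, with Epx at 0. Fibroblast and endothelial markers summed to 5.58, 4.40 and 7.79 TPM, with Col3a1, Pdgfra and Cdh5 at 0. Nearly all of this sum was 1 gene, Pecam1, at 5.40, 4.40 and 7.78 TPM. The part that these cells had in the levels below was not tested. In such bulk samples, fewer cells of a type and less RNA per cell cannot be told apart.

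Sequences in which transcripts of Tgfbr2 and Skil differ are shown, though the transcript shares given below do not rest on these stretches alone. The sequences come from the GENCODE M21 transcripts and are written 5′ to 3′ on the gene's strand. The capitals in the first mark a cassette exon of 75 bases, chr9:116158271-116158345 on the minus strand of mm10, which Tgfbr2-202 holds and Tgfbr2-201 skips. It adds 25 codons to the coding sequence, in the part of the receptor outside the cell. The capitals in the second mark 138 bases at the end of a coding exon, chr3:31113503-31113640 on the plus strand, which Skil-201 keeps and Skil-204 lacks. Both stretches keep the reading frame, and the Skil form without its 46 codons is known as SnoN2. The capitals in the third mark the first 30 bases of the Skil intron retained in Skil-206, chr3:31098420-31098449 on the plus strand, after 30 bases of the coding exon in lower case. This intron begins with GC, an uncommon splice donor, where most introns begin with GT. Lower-case letters in the first and second are the 15 flanking coding bases on each side.
Tgfbr2 cassette exon: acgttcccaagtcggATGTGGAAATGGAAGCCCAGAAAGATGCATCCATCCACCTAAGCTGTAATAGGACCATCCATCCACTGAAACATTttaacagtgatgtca
Skil alternative exon end: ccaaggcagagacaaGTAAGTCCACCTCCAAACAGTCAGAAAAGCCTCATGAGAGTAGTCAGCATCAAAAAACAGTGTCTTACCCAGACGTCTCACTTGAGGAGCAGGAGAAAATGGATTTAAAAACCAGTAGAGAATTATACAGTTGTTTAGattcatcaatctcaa
Skil exon and retained intron: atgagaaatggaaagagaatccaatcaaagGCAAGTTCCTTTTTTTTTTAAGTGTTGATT

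Most of these genes lay well above 1 TPM, led by the type I receptor gene and the repressor gene Skil, and only Ski and Smad7 lay near 1 TPM. Of the 10 members, 9 lay above 1 TPM and none below it by edgeR's quasi-likelihood test with Benjamini-Hochberg adjustment over 17678 genes. The test set each gene against 1 TPM, a fixed level, because the series has no contrast. In the same test 43.2% of all genes and 54% of 12996 protein-coding genes lay above 1 TPM, while 6.4% and 6.06% lay below. The members' median was 8.39 TPM, beside 2.09 TPM for the protein-coding genes tested. All 9 calls held when any 1 library was left out, library 3 included, and Smad7 alone changed its call. All 10 members passed the count filter, and their expected counts were whole numbers within 0.01 in every library. The plot of the members' levels by library orders them by role.

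**Figure D1:**
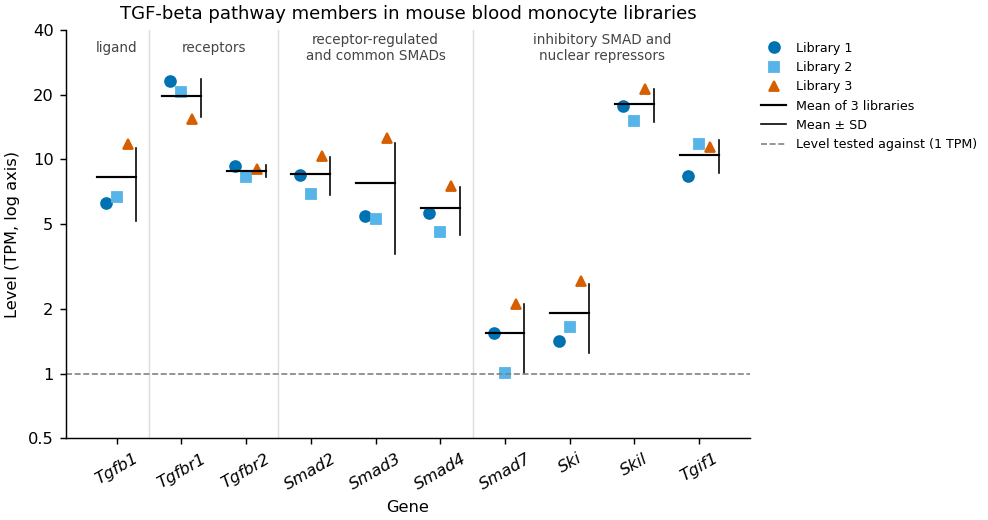
Level of each member in TPM on a log axis for libraries 1 (circles), 2 (squares) and 3 (triangles), with the mean and SD of 3 libraries; the dashed line is 1 TPM. Tgfbr1 and Skil have the highest means, 19.7 and 18.0 TPM, and Smad7 and Ski the lowest, 1.55 and 1.93 TPM.

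Tgfb1 (ENSMUSG00000002603.15, chr7:25687002-25705077, plus strand, mm10) encodes TGF-beta 1, the main form of the ligand in blood cells. Its level was 6.24, 6.69 and 11.8 TPM in libraries 1, 2 and 3, from 1409, 1406 and 1708 counts. Libraries 1 and 2 lay close together and library 3 stood higher. The mean of 8.25 ± 3.10 TPM (SD, n = 3) was above 1 TPM (log2 level 3.04, edgeR adjusted p = 3.60e-08) and stood at percentile 80.7 of the protein-coding genes tested. The annotated coding transcript Tgfb1-201 held 68.0%, 42.3% and 52.3% of the gene's TPM. Both retained-intron transcripts, Tgfb1-203 and Tgfb1-204, together held 32.0%, 57.7% and 47.7%. Tgfb1 RNA assigned to the coding transcript was therefore 4.25, 2.83 and 6.18 TPM, still highest in library 3. In the deposited table made from the reads, the 241-base Tgfb1-205 took 63.2%, 72.7% and 76.1%, against 0 in the main transcript tables, so the split between Tgfb1 transcripts depended on the table.

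The receptor genes differed in level. Tgfbr1 (ENSMUSG00000007613.15, chr4:47353222-47414931, plus strand) encodes the type I receptor ALK5. It reached 23.2, 20.6 and 15.4 TPM, from 14232, 13400 and 6218 counts, and was lowest in library 3. With a mean of 19.7 ± 4.01 TPM (SD, n = 3) it was the most abundant member (log2 level 4.30, edgeR adjusted p = 3.29e-11), at percentile 92.6. Tgfbr2 (ENSMUSG00000032440.13, chr9:116084293-116175360, minus strand) reached 9.31, 8.25 and 8.97 TPM, from 5872, 6013 and 3794 counts. Tgfbr2 was the steadiest member, with a coefficient of variation of 6.14% beside a median of 24.5% over protein-coding genes averaging at least 1 TPM. The mean of Tgfbr2 was 8.84 ± 0.541 TPM (SD, n = 3; log2 level 3.14, edgeR adjusted p = 1.52e-09). The log2 ratio of Tgfbr2 to Tgfbr1 was -1.32, -1.32 and -0.78 in libraries 1, 2 and 3, so Tgfbr1 was higher in each. The mean ratio, -1.14 ± 0.31 (SD, n = 3), puts Tgfbr1 2.20-fold higher. The exact sign-flip p (two-sided, libraries as units) was 0.25, the floor for n = 3, and 0.4 after adjustment over 8 ratios.

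Smad2 (ENSMUSG00000024563.16, chr18:76241580-76310963, plus strand) encodes a SMAD that the type I receptor phosphorylates. It reached 8.44, 6.86 and 10.3 TPM, from 2154, 1913 and 1711 counts. Its mean was 8.54 ± 1.73 TPM (SD, n = 3; log2 level 3.09, edgeR adjusted p = 8.53e-09). Smad3 (ENSMUSG00000032402.12, chr9:63646767-63757994, minus strand), which unlike the main form of SMAD2 binds DNA directly, reached 5.46, 5.26 and 12.5 TPM, from 2932, 3145 and 4491 counts. Smad3 was nearly level in libraries 1 and 2 and 2.34-fold above their mean in library 3, the widest spread among the members (coefficient of variation 53.4%). Its mean was 7.74 ± 4.13 TPM (SD, n = 3; log2 level 2.95, edgeR adjusted p = 1.07e-07), and the log2 level without library 3 was 2.42. Smad4 (ENSMUSG00000024515.13, chr18:73639009-73703780, minus strand), the common partner, reached 5.64, 4.58 and 7.52 TPM, from 1925, 1790 and 1667 counts. Its mean was 5.91 ± 1.49 TPM (SD, n = 3; log2 level 2.56, edgeR adjusted p = 1.12e-07).

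Among these SMAD genes, Smad4 lay below Smad2 in 3 of 3 libraries, with log2 ratios of -0.58, -0.58 and -0.46. Smad3 lay below Smad2 in libraries 1 and 2 (-0.63 and -0.38) and above it in library 3 (0.28), so the order of Smad2 and Smad3 was not fixed. Smad4 to Smad3 likewise changed sign, at 0.05, -0.20 and -0.73. The exact sign-flip test gave p = 0.25 for Smad4 to Smad2 and 0.5 for the other ratios of SMAD genes above, or 0.4 and 0.571 after adjustment over 8 ratios. The Smad2 level also rested on how its reads were divided. Its TPM was spread over Smad2-203, Smad2-206, Smad2-201 and Smad2-205, with mean shares of 29.95%, 27.0%, 24.6% and 14.2% and lengths of 1305, 972, 2410 and 8089 bases. With counts divided by the longest annotated transcript instead, the mean log2 ratio turned to 1.16 for Smad4 to Smad2 and to 1.52 for Smad3 to Smad2. Smad3-201 and Smad4-201 held 97.8% and 91.3% of their genes' TPM, but 51.5% and 39.8% in the table made from the reads.

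Smad7 (ENSMUSG00000025880.11, chr18:75367529-75395935, plus strand) encodes the inhibitory SMAD that blocks the receptor and is itself a target of the pathway. Its level was 1.54, 1.01 and 2.11 TPM, from 346, 505 and 578 counts. The mean of 1.55 ± 0.550 TPM (SD, n = 3) did not differ from 1 TPM past the threshold (log2 level 0.63, edgeR adjusted p = 0.0667). Smad7 passed above 1 TPM with TMM scaling (edgeR adjusted p = 0.0411) or without library 2 (edgeR adjusted p = 0.0321). Library 2 had more Smad7 counts than library 1 but a lower TPM. In library 1 of the main tables, 59.9% of Smad7 TPM was assigned to the 769-base Smad7-204, on which 1 TPM stands for few counts. In library 2 all of it was assigned to the 4278-base Smad7-201. The table made from the reads gave Smad7-204 18.1% in library 1. In library 2 it gave Smad7-201 28.4% and the 392-base Smad7-203 71.6%. As counts scaled to the library's total (CPM), which use no length, Smad7 was 12.7, 19.0 and 29.0. The log2 ratio of Smad7 to Smad3 was -1.83, -2.38 and -2.57, with a mean of -2.26 ± 0.39 (SD, n = 3; exact sign-flip p = 0.25, adjusted 0.4), and Smad7 was lower in each library.

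The repressor genes spanned the members' range. Ski (ENSMUSG00000029050.15, chr4:155154075-155222592, minus strand), the founding gene of its family, reached 1.42, 1.66 and 2.70 TPM, from 776, 989 and 1029 counts. Its mean was 1.93 ± 0.680 TPM (SD, n = 3; log2 level 0.95, edgeR adjusted p = 0.00405). Without library 3 the edgeR adjusted p for Ski was 0.0235. Skil (ENSMUSG00000027660.16, chr3:31095058-31122577, plus strand), which encodes the SKI relative SnoN, reached 17.8, 15.02 and 21.3 TPM, from 12489, 11304 and 8892 counts. Its mean was 18.0 ± 3.16 TPM (SD, n = 3; log2 level 4.17, edgeR adjusted p = 3.89e-11). Skil lay above Ski in 3 of 3 libraries, with log2 ratios of 3.65, 3.17 and 2.98, a mean 9.63-fold difference (exact sign-flip p = 0.25, adjusted 0.4). Tgif1 (ENSMUSG00000047407.17, chr17:70844205-70853546, minus strand), a homeodomain repressor, reached 8.37, 11.7 and 11.4 TPM, from 1626, 2262 and 1531 counts. Its mean was 10.5 ± 1.85 TPM (SD, n = 3; log2 level 3.39, edgeR adjusted p = 2.63e-09). Tgif1 exceeded Ski by log2 ratios of 2.56, 2.82 and 2.07, a mean 5.60-fold difference. A Tgif1 pseudogene, Tgif1-ps, had 0, 0 and 6 counts.

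In order of mean TPM the members were Tgfbr1, Skil, Tgif1, Tgfbr2, Smad2, Tgfb1, Smad3, Smad4, Ski and Smad7. Neighbours did not overlap between libraries at 2 places in this order, Skil above Tgif1 and Smad4 above Ski. At the other 7 places the ranges of neighbours overlapped. The ligand and the type II receptor gene, for example, had log2 ratios of Tgfb1 to Tgfbr2 of -0.58, -0.30 and 0.40 (mean -0.16 ± 0.50, SD, n = 3; exact sign-flip p = 0.75). With the older M4 annotation this mean was -0.78.

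Transcript shares separated forms of Tgfbr2, Skil and Tgif1 that differ in sequence. These shares are descriptions with no test. Tgfbr2-202, which holds the cassette exon printed above, took 50.03%, 58.2% and 49.3% of Tgfbr2 TPM, a mean of 52.5% ± 4.96 (SD, n = 3), and Tgfbr2-201 took the rest. In these tables both forms had similar levels in each library. The forms also differ in total length, 8092 and 3476 bases beside coding lengths of 1776 and 1701, so reads outside the cassette exon bear on the split. The table made from the reads put Tgfbr2-202 at 33.4%, 36.8% and 29.9%, and the M4 tables at a mean of 42.5%. Skil-204, the form without the 138 bases printed above, took 70.8%, 68.8% and 43.4% of Skil TPM, and Skil-201, which holds them, took 19.5%, 17.5% and 9.10%. Of the sum of both, Skil-201 was 21.6%, 20.3% and 17.4%, so the shorter form was the larger in each library. The table made from the reads gave 27.1%, 25.2% and 0.0287% for the same quantity, near the main tables in libraries 1 and 2 but not in library 3.

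The retained-intron transcript Skil-206 held a larger share of Skil in library 3 than in the others. It runs on from the second exon for 2974 bases of the following intron and held 9.78%, 13.7% and 45.9% of Skil TPM, from 900, 1152 and 3421 counts. The table made from the reads gave 8.24%, 14.6% and 30.9%, again highest in library 3. Its mean was 23.1%, or 11.7% without library 3. Over 5382 protein-coding genes with a retained-intron transcript and a mean of at least 1 TPM, the median retained share was 16.4%, 17.2% and 21.002%, and library 3 was highest in 43.5% of them. In this comparison, chosen after seeing the data, the Skil difference from the mean of libraries 1 and 2, 34.1 percentage points in library 3, lay at percentile 98.6 of these genes. Counting protein-coding transcripts alone, Skil was 16.03, 12.98 and 11.55 TPM and thus lowest in library 3, where the whole gene was highest. Tgif1 had a retained-intron transcript as well, Tgif1-212, at 19.9%, 9.28% and 26.4%, beside 72.9%, 81.4% and 49.8% for the coding Tgif1-201. For Ski, the coding Ski-201 held 52.4%, 53.3% and 67.1%, and Ski-203, annotated as a processed transcript, held the rest. The table made from the reads gave Ski-201 66.9%, 100% and 90.6%, so the Ski split depended on the table. Tgfbr1-201 held 96.3%, 93.4% and 92.9% of Tgfbr1 in the main tables, but 59.9%, 59.0% and 44.2% in the table made from the reads.

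**Figure D2:**
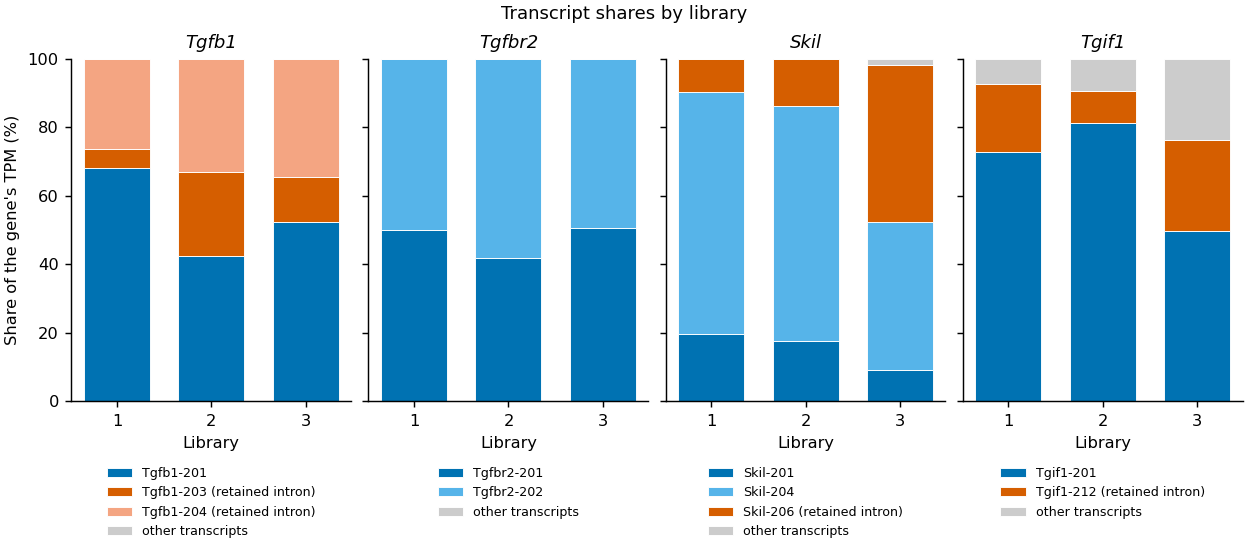
Share of the gene's TPM (%) held by each transcript with a mean share of at least 10%, by library, for Tgfb1, Tgfbr2, Skil and Tgif1; orange shades are retained-intron transcripts and grey is all other transcripts. Skil-206 takes 45.9% in library 3, against 9.78% and 13.7% in libraries 1 and 2, while Tgfbr2-201 and Tgfbr2-202 divide the gene about evenly in each.

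Between libraries, most members were highest in library 3 and the type I receptor gene was lowest there. Of the 10 members, 7 were highest in library 3 (Tgfb1, Smad2, Smad3, Smad4, Smad7, Ski and Skil) and 1, Tgfbr1, was lowest. Among 8299 protein-coding genes with a mean of at least 1 TPM, 58.3% were highest and 20.3% lowest in library 3. The median of these genes was shifted by 0.21 (log2) from library 1 to 3 and by 0.38 from library 2 to 3. Relative to that median the same 7 members were highest and Tgfbr1 and Tgfbr2 were lowest, beside 38.5% and 38.3% of the genes. Against the mean of libraries 1 and 2, library 3 was 2.34-fold for Smad3, 1.83-fold for Tgfb1, 1.75-fold for Ski, 1.65-fold for Smad7 and 0.701-fold for Tgfbr1. Tgfbr2 and Tgif1, at 1.02-fold and 1.13-fold, were nearly level.

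In CPM, Smad3 was 108, 118 and 225 and Tgfbr1 was 524, 505 and 312, the same directions as in TPM. On that scale 6 members were highest and 2 lowest in library 3, and Skil, at 460, 426 and 446, was no longer highest there. The shares over all genes were not computed in CPM, so these counts have no background beside them. Marker sums in library 3 were 2.54-fold for NK cells, 7.44-fold for platelets and 0.624-fold for monocytes, against the mean of libraries 1 and 2. The monocyte markers were divided, with 4 of 10 highest and 5 lowest in library 3. Lyz2, the largest of them, was 1448, 1238 and 718 TPM, whereas Csf1r was 69.8, 52.4 and 86.6 TPM. The part of these cell types in the members' differences was not tested, and a difference between single libraries has no replicate check.

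**Figure D3:**
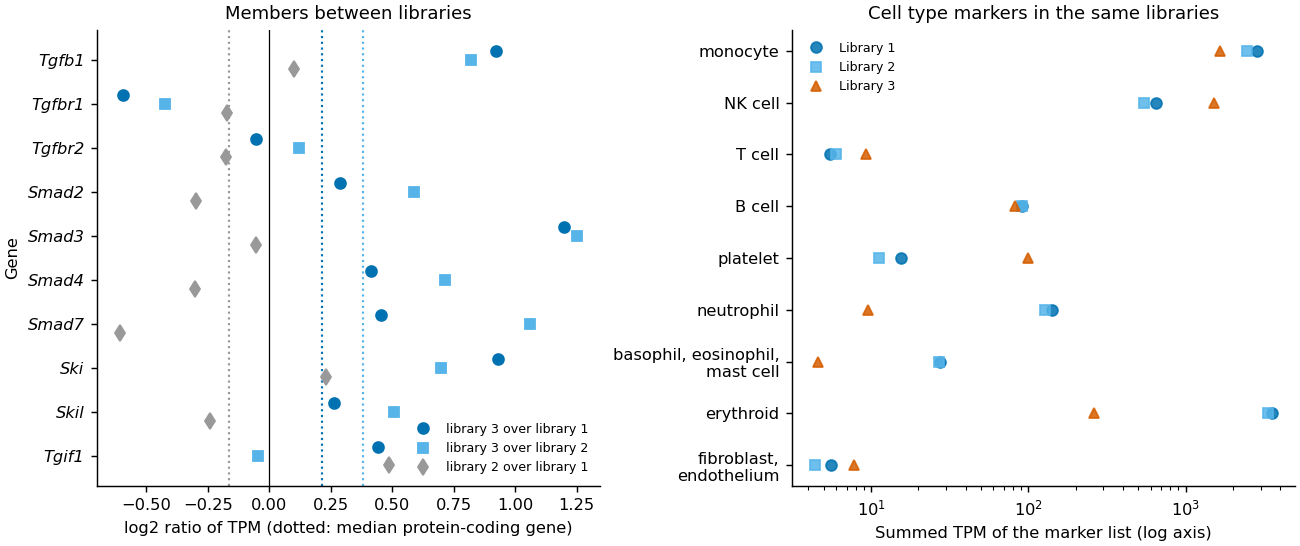
Left, log2 ratio of TPM between libraries for each member, with dotted lines at the median of 8299 protein-coding genes; right, summed TPM of 9 lists of cell type markers in each library on a log axis. Smad3 and Tgfb1 lie to the right of the medians and Tgfbr1 to the left for library 3. In that library the sums of NK cell and platelet markers are highest and those of erythroid and neutrophil markers lowest, the neutrophil sum mainly through Retnlg.

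The other genes of the pathway differed between lists, from ligands with no gene above 1 TPM to adaptors and nuclear partners with most above it. Across 93 genes in 7 lists, 44 lay above 1 TPM, 8 below and 21 neither by the edgeR test, and 20 had too few counts to test. As a whole the 44 of 73 tested lay near the background of 54% of protein-coding genes above 1 TPM. With TPM scaled to protein-coding genes alone, 0 of 12996 such genes lay below 1 TPM. The 8 calls below are thus particular to the deposited scale. The median of the 93 was 1.39 TPM. None of the 13 other ligands of the superfamily lay above 1 TPM. Gdf11 and Tgfb3 lay below it (edgeR adjusted p = 0.0237 and 0.0335), but the Tgfb3 call was lost when any 1 library was left out and the Gdf11 call without library 1 or library 2. Of the remaining ligands, 4 were neither above nor below and 7 were not tested. Tgfb3 was 0.11, 0.03 and 0.28 TPM and Gdf11 0.06, 0.17 and 0.39 TPM, against 6.24 to 11.8 TPM for Tgfb1. Gdf15 was 0.02, 0.36 and 0 TPM, and Inha, Inhbb, Mstn, Bmp4 and Bmp6 had 0 counts. Over all 13 pathway genes with 0 counts, the limit that such a count allows (3 counts, counting error only) ran from 0.00319 to 0.0526 TPM.

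Of the 13 other receptor genes, 3 of the 12 tested lay above and 4 below 1 TPM. Among the protein-coding genes tested these shares were 54% and 6.06%. The median of the 13 was 0.187 TPM. Bmpr2, the type II receptor for bone morphogenetic proteins (BMPs), was 2.89, 2.52 and 3.30 TPM. Tgfbr3, the co-receptor betaglycan, was 3.28, 2.57 and 2.54 TPM, and the activin type I receptor gene Acvr1b was 1.49, 1.54 and 1.46 TPM. Each lay below both Tgfbr1 and Tgfbr2 in every library. Acvr1, Acvr1c, Bmpr1a and the decoy receptor gene Bambi lay below 1 TPM on the deposited scale, and Bmpr1b had 0 counts. The calls of Acvr1b, Acvr1 and Bambi were lost without library 1 or library 2, and that of Bmpr1a without library 1. Of the BMP-branch SMAD genes, Smad1 was 3.48, 1.91 and 2.25 TPM and Smad5 2.05, 1.89 and 2.01 TPM, both above 1 TPM. Smad9 had 0 counts. Smad6, the other inhibitory SMAD, was 0.09, 0.04 and 0.25 TPM, below Smad7 in each library. Its call below 1 TPM (edgeR adjusted p = 0.0379) was lost when any library was left out.

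Of 14 genes that store or activate latent TGF-beta, 4 of the 8 tested lay above 1 TPM and none below, with a median of 0.04 TPM. This is near the background of 54% above and 6.06% below for protein-coding genes. Ltbp3, neither with all libraries, lay below 1 TPM without library 3 (edgeR adjusted p = 0.0384). Nrros, which anchors latent TGF-beta 1 on myeloid cells, was 15.8, 17.1 and 16.3 TPM, and Itgav, the integrin chain that serves its activation, was 17.7, 11.7 and 11.5 TPM. Thbs1, an activator, was 3.80, 4.54 and 7.14 TPM, and Furin, the protease that cuts the precursor, was 3.71 ± 0.555 TPM (SD, n = 3). Nrros was higher than Tgfb1 in each library. Lrrc32, the relative of Nrros on regulatory T cells and platelets, had 0, 0 and 4 counts, chosen for mention after its values were seen. The matrix genes Fbn1 and Dcn and the epithelial integrin chain gene Itgb6 had 0 counts.

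Of 20 adaptors and enzymes that act on receptors and SMADs, 16 lay above 1 TPM and none below, with a median of 5.12 TPM, beside 54% above and 6.06% below for the protein-coding genes tested. Usp15 and Usp4, deubiquitinases of the type I receptor, reached 22.4 ± 1.61 and 13.0 ± 3.82 TPM (SD, n = 3), and Ppm1a, a phosphatase of SMAD2 and SMAD3, reached 18.7 ± 4.92 TPM. Of 14 nuclear partners and co-repressors, 11 of the 13 tested lay above 1 TPM and none below, with a median of 7.30 TPM, against the same background. Zeb2, a SMAD-binding repressor, reached 35.2 ± 7.82 TPM (SD, n = 3), Ncor1, a co-repressor of SKI and SnoN, 33.7 ± 10.5 TPM, and Runx1 9.27 ± 5.38 TPM. Foxh1, the SMAD partner of early embryos, had 0 counts. The calls of Smurf1 and Runx3 above 1 TPM were lost without library 3. Fkbp1a, neither with all libraries, lay above 1 TPM without library 2 (edgeR adjusted p = 0.00369), and Usp11 lay below it without library 3 (edgeR adjusted p = 0.0392).

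Among 15 genes known as targets of TGF-beta in other cells, 8 lay above 1 TPM and 1 below, with a median of 1.87 TPM. Of the 11 targets tested, 8 above is not set apart from the 54% of protein-coding genes above 1 TPM. The target median takes in 4 genes with too few counts to test. It is therefore not comparable with the 2.09 TPM of protein-coding genes tested. Id2, an inhibitor of basic helix-loop-helix factors, was 25.9, 22.4 and 52.8 TPM, highest in library 3. Bhlhe40 was 30.8, 36.3 and 31.4 TPM and Klf10, an early TGF-beta response gene, 19.7, 18.7 and 17.3 TPM, both nearly level. Itgae, the integrin chain of tissue-resident lymphocytes, lay below 1 TPM at 0.20 ± 0.0436 TPM (SD, n = 3). Ccn2, a target in mesenchymal cells, had 0 counts. The call of Cdkn1a above 1 TPM was lost without library 3 and that of Gadd45b without library 1.

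**Figure D4:**
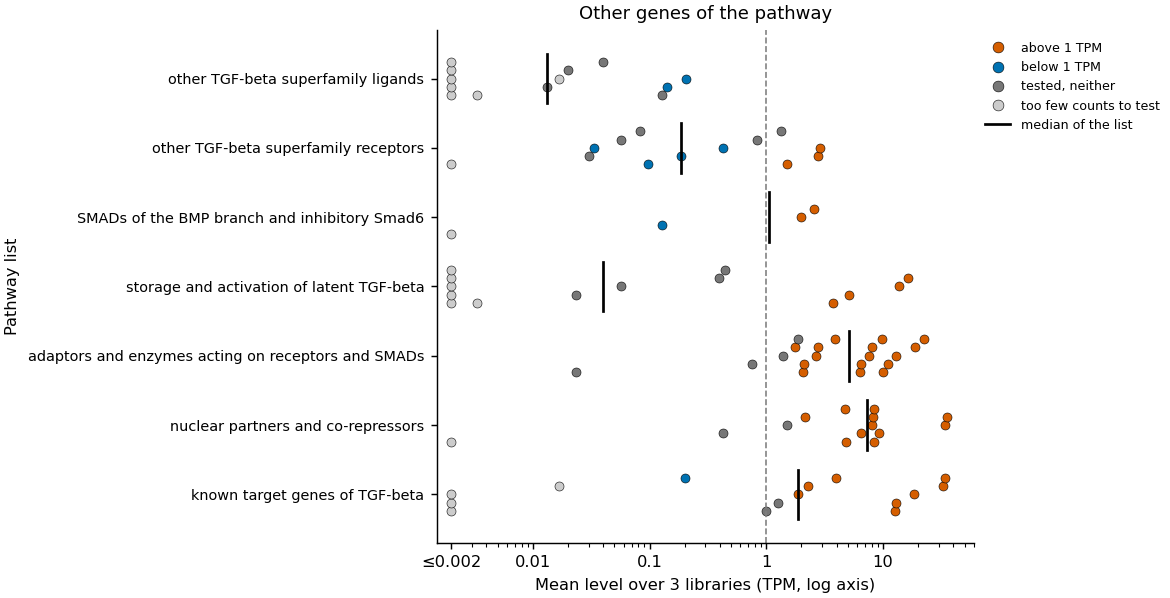
Mean level over 3 libraries in TPM on a log axis for 93 other genes of the pathway in 7 lists, coloured by the edgeR call against 1 TPM (dashed line); black bars are list medians and values at or under 0.002 are drawn at 0.002. The ligand list (median 0.0133 TPM) has no gene above 1 TPM, whereas the adaptor and nuclear partner lists have medians of 5.12 and 7.30 TPM.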

How the data were processed

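Per the labels' protocols, 100 ng of RNA per library was used for strand-keeping ScriptSeq libraries after removal of ribosomal RNA, with fragments of 200 to 594, 200 to 491 and 200 to 1000 bp. The authors' deposited tables give, per gene and transcript on mm10 with GENCODE M21 and M4, an expected count (estimated reads) and TPM over all rows, small RNAs included; the sources used here do not name the quantification programs. The deposited TPM values are thus lower than values scaled to protein-coding genes by 9.16, 10.2 and 9.34 times.

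Expected counts were rounded and fitted with edgeR 4.0.16 (R 4.3.3; intercept only, offset of 1 TPM, two-sided quasi-likelihood F test, summed count of at least 10, Benjamini-Hochberg at 0.05). DESeq2 1.42.0, limma 3.58.1 (pseudocount of 0.1 TPM), TMM, M4 and levels of 0.5 and 2 TPM were alternatives. Shares are of a gene's TPM. Transcript names come from the deposited table made from the reads, whose estimated counts and TPM give the second set of shares, and coordinates come from GENCODE M21. All libraries carry 1 donor record, yet Xist had 0, 0 and 4348 counts in libraries 1, 2 and 3. Part of the spread behind the p-values may be technical, and how large a part was not tested. The members, lists and markers were chosen with earlier results of these data known. Named were all members, and from each list the 3 genes of highest mean TPM, those with 0 counts and those below 1 TPM, and transcripts with at least 10% of a member's TPM; genes whose call changed on leaving a library out were named as well, chosen after that change was seen. One result under this rule is not reported here.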

Additional observations from a re-analysis of the deposited data

How the results depend on the processing

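Of 315 alternative values, 277 kept their direction and their side of the threshold or stayed within the spread between libraries. The calls of 8 members held under all 11 alternatives; the exceptions were Smad7 and Ski. Against 2 TPM the log2 level was -0.05 for Ski and -0.37 for Smad7, neither past the threshold by edgeR (adjusted p = 0.849 and 0.269). Smad7 lay above the level with TMM, without library 2, on the protein-coding scale (log2 level 3.88) and against 0.5 TPM. With counts per base of the longest transcript the log2 ratio was 1.52 for Smad3 to Smad2 and 1.16 for Smad4 to Smad2; the longest Smad2 transcript, 8089 bases, held 14.2% of its TPM. Leaving out each library in turn gave -0.44 to 0.05 for Tgfb1 to Tgfbr2 (0.05 without library 1). The Tgfbr2-202 share was 33.4% in the table made from the reads and 42.5% with M4, and the cause was not tested. Its share of counts, which are not divided by length, was 72.5%, as it has 8092 bases beside 3476 for Tgfbr2-201. Members lowest in library 3 were Tgfbr1 and Tgfbr2 relative to the median gene and in CPM, and Tgfbr1 and Skil in protein-coding transcripts alone. The CPM and protein-coding transcript scales were chosen after seeing the data, and shares over all genes were not computed on them. Pathway genes with 0 counts in every library could lie at up to 0.0526 TPM at this depth.

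The number of all genes below the level tested was 1131 by edgeR against 1 TPM, 4117 by DESeq2, 6323 by limma, 177 against 0.5 TPM, 3410 against 2 TPM, 268 without library 1, 396 without library 2 and 1 on the protein-coding scale, where 12091 lay above in place of 7639. No paired analysis was possible because the series has 1 group.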
